A study of Drosophila melanogaster with 6 samples.

Results

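Adepithelial myoblasts are the muscle precursor cells that lie on the inner face of the leg imaginal disc, the larval epithelial sac that forms an adult leg, and their genes are described here in discs with and without a PRE deletion. They were followed through 10 genes listed by name, out of 17612 genes in the count table, and all 10 were found there by symbol and FlyBase identifier. All 10 also had enough reads to enter the test, which covered 8802 genes. The list was fixed by name and not by a rule on measured values, though it was chosen with earlier results of these data known.

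Leg discs were taken from third-instar larvae of the fruit fly Drosophila melanogaster, and their poly-A RNA was sequenced in 2 groups of 3 libraries, each library made from 20 pooled discs of larvae raised at 25 °C. The first group, labelled Double, is described by the series as discs that carry the deletion of a PRE, a DNA element that recruits Polycomb group repressors. The second group, labelled WT, is wild type. The labels give neither the deleted element nor any strain, further allele, sex or exact larval age, and they name no treatment. Since no label says how the replicates of a group were separated, the p-values reflect the spread among these samples alone, which may be partly technical.

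The myoblasts of larval discs derive from embryonic cells that keep expressing the mesoderm regulator twi and stay undifferentiated while they divide. Notch signalling, zfh1 and Him hold back differentiation, whereas Mef2 drives the muscle programme. FGF signalling through the receptor htl and its adaptor stumps supports the spread and number of mesodermal cells in the embryo and of disc myoblasts. When muscle forms, the immunoglobulin proteins kirre and rst let founder myoblasts recognise and fuse with other myoblasts. Several of these genes also act outside muscle: ct in external sense organs, stumps in the trachea, rst in the eye and zfh1 in other mesodermal cells. In whole discs a change in the number of cells of a type and a change in RNA per cell cannot be told apart.

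The libraries held between 8818943 and 13605668 counted reads, so that 1 read equals 0.0737 to 0.113 CPM, the unit of expression used here, in which reads are scaled to library size with TMM factors. Leg disc identity genes were present throughout: all 17 listed epithelial markers were tested, and their summed level spanned only 1.06-fold over the 6 libraries, from 3516 to 3717 CPM. edgeR called 1 of them, the leg patterning gene dac, which fell in Double (log2 fold change -0.53; edgeR adjusted p = 0.003869) and was not called without Double replicate 3. Markers of tissue outside the disc varied far more. The summed level of 7 fat body markers was 13619, 3286 and 8589 CPM in Double replicates 1, 2 and 3 and 194, 6836 and 4781 CPM in WT replicates 1, 2 and 3. The sum of 8 salivary gland markers spanned 415-fold. WT replicate 1 was lowest for both. edgeR called none of either list, with 2 fat body and 1 salivary gland markers at an unadjusted p under 0.05, whereas DESeq2 called 1 of each and limma-voom 0 and 1.

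None of the 10 myoblast genes passed the test for a difference between Double and WT (edgeR's quasi-likelihood test, Benjamini-Hochberg adjusted p of at least 0.4685). None stood at an unadjusted p under 0.05 either, and DESeq2 and limma-voom also called 0 of 10. Over all 8802 tested genes 131 were called, or 1.49%, with 0.545% higher and 0.943% lower in Double, and 12.3% had an unadjusted p below 0.05. The background count of 131 was 67 without Double replicate 1, 69 without Double replicate 2, 46 without Double replicate 3 and 64 without WT replicate 2. The log2 fold changes of the 10 genes had a median of 0.01, against 0.00 for all tested genes, with 6 above 0 and 4 below. Their median size without regard to sign was 0.08, against 0.12 for all tested genes.

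The summed level of the 10 genes was 489, 462 and 494 CPM in Double replicates 1, 2 and 3 and 496, 484 and 514 CPM in WT replicates 1, 2 and 3. The sums of the groups overlapped and spanned 1.11-fold over the 6 libraries, while the fat body sum spanned 70.3-fold. No library stood apart for the whole list: WT replicate 3 was the highest library for 3 of the 10 genes, and each library was the highest for at least 1.

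**Figure D1:**
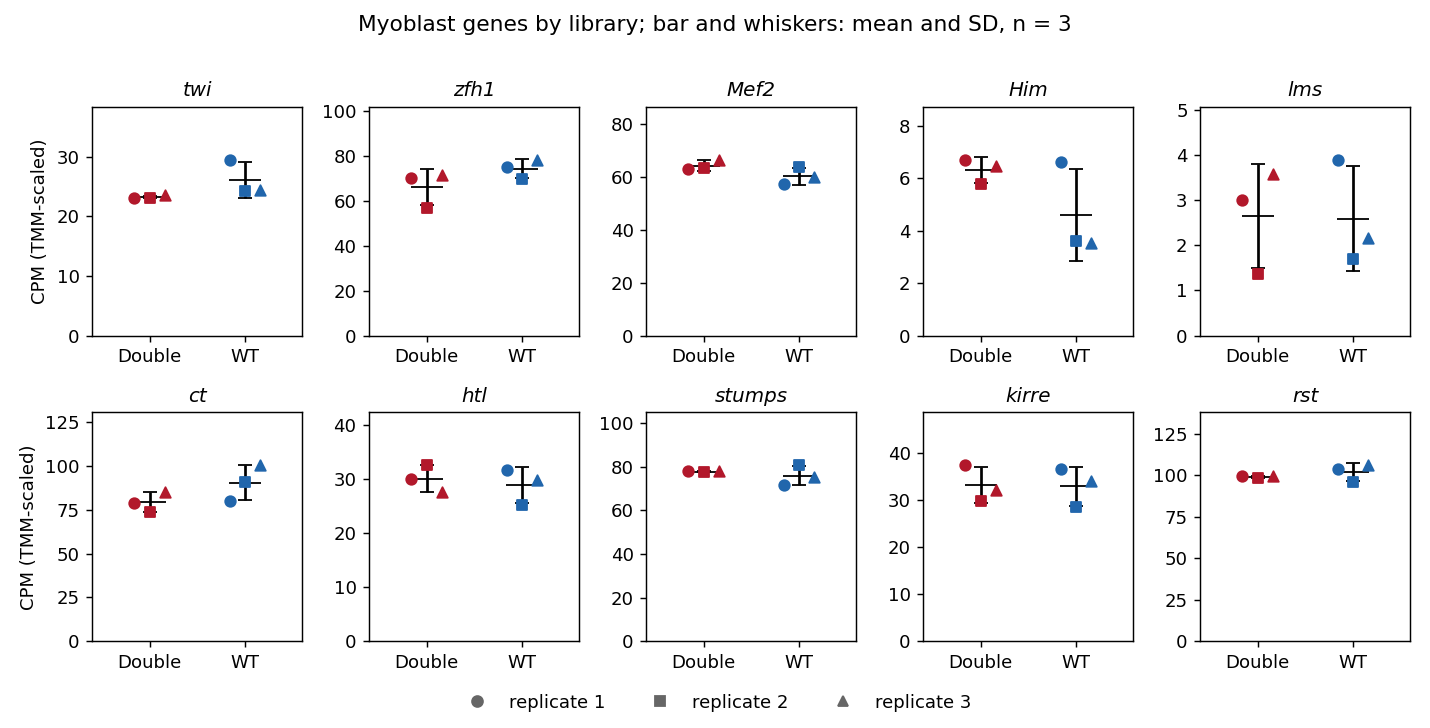
Expression of the 10 myoblast genes in each library, in TMM-scaled CPM from 0, with Double on the left and WT on the right of each panel. Points are libraries, the bar is the mean and the whiskers the SD (n = 3). The groups overlap in every panel except that of twi, where the Double libraries lie at 23.1 to 23.5 CPM and the WT libraries at 24.2 to 29.5 CPM.

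Among the transcription regulators, twi came first, since it encodes the basic helix-loop-helix factor that marks undifferentiated mesoderm. twi (FBgn0003900, chromosome arm 2R, 22985374 to 23048325, plus strand, dm6) read 23.1, 23.1 and 23.5 CPM in Double replicates 1, 2 and 3 and 29.5, 24.2 and 24.4 CPM in WT replicates 1, 2 and 3. Every Double value was lower than every WT value, but the gap to WT replicates 2 and 3 was small and WT replicate 1 was well above the rest. The log2 fold change of twi was -0.17 (SE 0.10), with a 95% interval of -0.40 to 0.07 and an edgeR adjusted p of 0.5725. Without WT replicate 1 it was -0.06 (edgeR adjusted p = 0.8544). It was the only one of the 10 genes whose groups did not overlap, where 19.5% of all tested genes had groups that did not overlap and 9.11% had Double entirely below WT. Between Double libraries the spread of twi was 1.1% of its mean, below the 6.28% that counting alone would give. In WT it was 11.5%, against 5.83% from counting.

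zfh1, a zinc finger and homeodomain repressor that keeps muscle progenitors from differentiating, lies on 3R at 30765926 to 30789202 on the plus strand (FBgn0004606). It read 69.9, 56.7 and 71.3 CPM in Double and 74.8, 69.7 and 78.3 CPM in WT, in replicate order. Double replicate 2 was the lowest library and the other Double libraries lay within the WT range. The log2 fold change was -0.17 (SE 0.10; 95% interval -0.40 to 0.05; edgeR adjusted p = 0.5307), and without Double replicate 2 it was -0.07.

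Mef2 encodes the MADS-box factor that activates muscle structural genes, and it lies on 2R, minus strand, from 9913496 to 9958858 (FBgn0011656). Its level was 63.0, 63.3 and 66.6 CPM in Double and 57.2, 63.7 and 60.0 CPM in WT. The 2 groups overlapped, with the lowest value in WT replicate 1, the library in which twi was highest. The mean was 64.3 ± 2.03 CPM in Double and 60.3 ± 3.30 CPM in WT (SD, n = 3 each). The corresponding log2 fold change was 0.09, with an SE of 0.07 and an edgeR adjusted p of 0.6411.

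Him encodes a small nuclear protein that inhibits Mef2 activity with the co-repressor Groucho. It lies on X at 18209427 to 18210741 on the plus strand (FBgn0030900) and was counted with few reads. It read 6.71, 5.78 and 6.45 CPM in Double, from 78, 64 and 65 reads, and 6.63, 3.62 and 3.53 CPM in WT, from 90, 32 and 39 reads. WT replicate 1 was as high as the Double libraries, and the other WT libraries were lower than all of them. The log2 fold change of 0.45 (SE 0.31; 95% interval -0.25 to 1.15) had the largest size of the 10 genes and an edgeR adjusted p of 0.5945. Without WT replicate 1 it was 0.82 (edgeR adjusted p = 0.2308, or 0.01765 unadjusted), and with the fat body markers as a covariate it was also 0.82 (edgeR adjusted p = 0.2821). These settings are not separate checks, because the covariate mainly sets WT replicate 1 apart. The fat body sum was 194 CPM in that library and 3286 to 13619 CPM in the others. In WT the spread of Him between libraries was 38.5% of its mean, against 13.7% from counting alone, and in Double it was 7.56%, below its counting error.

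lms encodes a homeodomain protein of a subset of muscle precursors, needed for the lateral muscles of the larva. Its position is 20556877 to 20559953 on the plus strand of 2R (FBgn0034520). It had 35, 15 and 36 reads in Double and 53, 15 and 24 reads in WT, which is 3.01, 1.36 and 3.57 CPM against 3.90, 1.70 and 2.17 CPM. The groups overlapped fully. The log2 fold change of 0.02 (SE 0.49) had an interval from -1.11 to 1.15, which holds everything between a fall to 0.463-fold and a rise to 2.22-fold. Of its annotated exon bases 39.3% are shared with Mgat1 on the opposite strand, which read 37.1, 36.0 and 38.1 CPM in Double and 34.8, 36.2 and 34.5 CPM in WT. Whether counting used the strand is not stated in these sources, so the level of lms is uncertain.

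ct (cut) encodes a homeodomain protein that is high in the myoblasts of direct flight muscles and in external sense organs. It was found on X at 7608428 to 7678859 on the plus strand (FBgn0004198) and read 78.7, 73.8 and 85.1 CPM in Double and 80.2, 90.8 and 100.4 CPM in WT. WT replicate 1 lay within the Double range, and the other WT libraries lay above it. ct had the smallest p of the 10 genes, with a log2 fold change of -0.19 (SE 0.10; 95% interval -0.41 to 0.03; edgeR adjusted p = 0.4685, or 0.07785 unadjusted). Without WT replicate 1 the log2 fold change was -0.27 (edgeR adjusted p = 0.1561, or 0.007912 unadjusted), and with the fat body covariate it was -0.29 (edgeR adjusted p = 0.1454, or 0.006871 unadjusted). As for Him, these settings are not separate checks, since WT replicate 1 had by far the lowest fat body sum.

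The FGF receptor gene htl and the adaptor gene stumps had overlapping groups and did not pass the test. htl (FBgn0010389, 3R, 18045216 to 18052984, minus strand) read 30.0, 32.5 and 27.6 CPM in Double and 31.6, 25.1 and 29.7 CPM in WT. The WT libraries spanned the Double ones almost entirely, and its log2 fold change amounted to 0.06 (SE 0.11; edgeR adjusted p = 0.8647). stumps (FBgn0020299, 3R, 14577217 to 14608079, plus strand), which links the activated receptor to the Ras pathway, read 77.9, 77.4 and 78.0 CPM in Double and 71.7, 80.7 and 75.4 CPM in WT. All Double libraries lay within the range of WT, with a log2 fold change of 0.04 (SE 0.07; edgeR adjusted p = 0.8614). The spread between Double libraries was 0.463% of the mean for stumps and 0.595% for rst, below the 3.43% and 3.04% that counting alone would give.

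The recognition genes kirre and rst, close relatives in sequence and function, sit together on X. kirre (FBgn0028369) spans 394 kb of the plus strand, from 2740384 to 3134532, and rst (FBgn0003285) lies inside that span on the minus strand, from 2950399 to 2973834, with no shared exon base. kirre read 37.5, 29.9 and 32.3 CPM in Double and 36.6, 28.5 and 34.1 CPM in WT, and both groups covered nearly the same range. The kirre log2 fold change was 0.00 (SE 0.12; 95% interval -0.28 to 0.29; edgeR adjusted p = 0.992). rst read 99.3, 98.5 and 99.7 CPM in Double and 104.0, 95.6 and 106.0 CPM in WT, and the Double libraries lay inside the WT range. Its log2 fold change was -0.04 (SE 0.06; 95% interval -0.19 to 0.10; edgeR adjusted p = 0.816).

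The span of kirre overlaps 28 annotated genes and elements, of which 6 were tested, rst among them, and none was called (edgeR, smallest adjusted p 0.3901). At an unadjusted p under 0.05 stood only CG3588, with a log2 fold change of -0.96 (edgeR adjusted p = 0.3901, or 0.04595 unadjusted). The eye colour gene w, also inside the span, read 8.95, 2.71 and 3.77 CPM in Double and 6.34, 2.60 and 5.33 CPM in WT, with groups that overlapped.

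**Figure D2:**
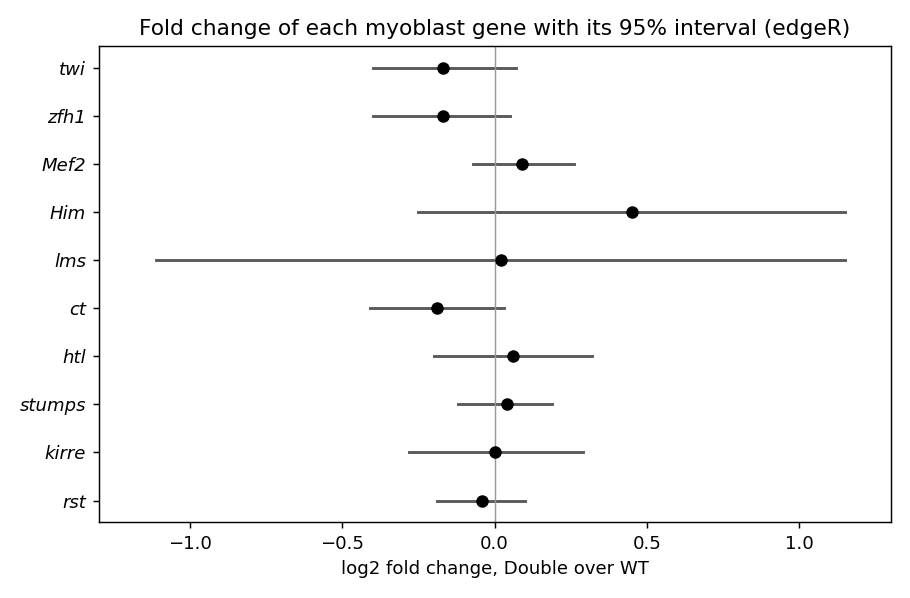
The log2 fold change of Double over WT for each of the 10 myoblast genes (points) with its 95% interval from edgeR (lines). Every interval includes 0, and those of Him and lms, the genes with the fewest reads, are the widest.

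For the 8 genes other than Him and lms, no 95% interval reached below 0.753-fold or above 1.24-fold of WT. The intervals of Him and lms were wider than these bounds. Between libraries the spread of lms was 43.6% of its mean in Double and 44.9% in WT, against 18.7% and 18.1% from counting alone. The misses of the threshold do not show that the levels were equal, only that a difference beyond these bounds was not detected.

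Levels of different genes were compared per kilobase of annotated exon, as CPM per kb over the 6 libraries. rst was highest at 16.1 CPM per kb, followed by stumps at 13.7, twi at 10.3, zfh1 at 10.1, htl at 7.19, ct at 6.82, Mef2 at 6.78, Him at 5.93, kirre at 4.22 and lms at 1.29 CPM per kb. Among neighbours in this order, rst lay above stumps, stumps above twi, zfh1 above htl and kirre above lms in all 6 libraries with no overlap of their ranges. The ranges of twi and zfh1, and of htl, ct, Mef2 and Him each with the next, overlapped. twi was above zfh1 only in Double replicate 2 and WT replicates 1 and 2. In WT replicate 2 the margin was slight, with a zfh1 to twi ratio of 0.996. All 10 genes are in the lower or middle part of the transcriptome: 50.2% of 8771 tested genes with a known exon length lay below rst, 37.4% below twi and 11.2% below lms. These levels rest on the summed length of all annotated exons, so genes with long alternative ends are understated.

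**Figure D3:**
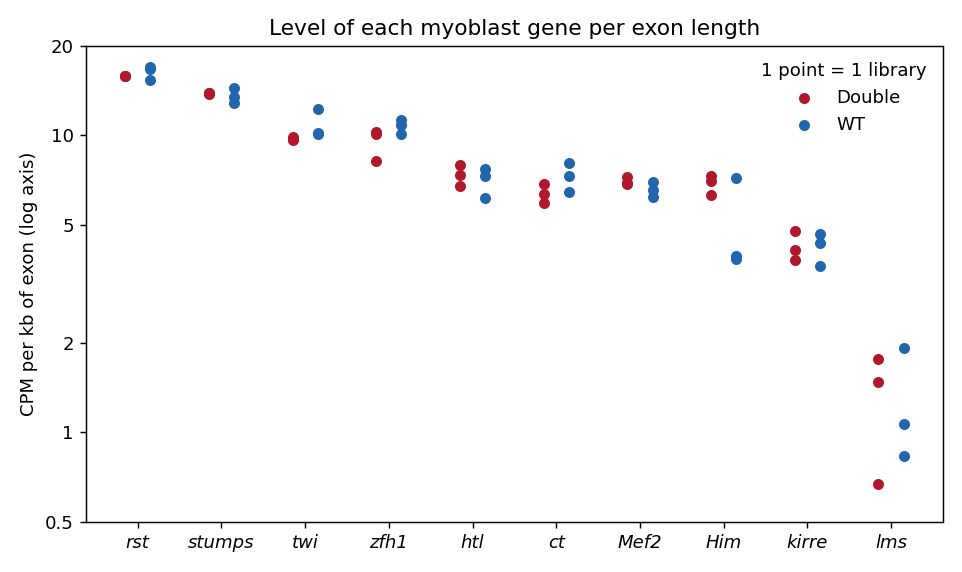
Level of each myoblast gene in CPM per kb of exon on a log axis, ordered by the mean over 6 libraries, with Double points left of WT points. The order runs from rst at 16.1 to lms at 1.29 CPM per kb, and the points of htl, ct, Mef2 and Him lie among each other.

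Ratios between members within a library were also given, since they do not depend on how many reads a library has. rst exceeded kirre per kb by 3.33, 4.14 and 3.88 times in Double and by 3.58, 4.22 and 3.92 times in WT, and the groups overlapped. The ratio of Him to Mef2, an inhibitor and its target, was 1.06, 0.913 and 0.967 per kb in Double and 1.16, 0.567 and 0.587 in WT, where WT replicate 1 again stood with the Double libraries. The ratio of twi to Mef2 was 1.41, 1.41 and 1.36 in Double and 1.98, 1.46 and 1.56 in WT. That ratio was lower in each Double library than in any WT library, by a small margin against WT replicate 2, and it was not tested. Of single tested genes, 19.5% had groups that did not overlap. The ratio of zfh1 to twi was 0.979 ± 0.116 in Double and 0.993 ± 0.116 in WT (SD, n = 3 each), and its groups overlapped. stumps exceeded htl by 1.90 ± 0.164 times in Double and 1.95 ± 0.358 times in WT (SD, n = 3 each).

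By position, 4 members lie on X (ct, Him, kirre and rst), 3 on 2R (Mef2, lms and twi) and 3 on 3R (htl, stumps and zfh1). None lies on 2L, the arm of dac. Of the genes that share exon bases with a member other than lms, CG9897 and asRNA:CR42742 at twi and asRNA:CR45189 at zfh1 had 0 reads in all 6 libraries.

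The pathway around the FGF receptor was measured with 19 genes, all tested, and edgeR called none, with 3 at an unadjusted p under 0.05. DESeq2 and limma-voom also called none of the 19. The median log2 fold change was 0.07, with 15 genes above 0 and 4 below, where 4410 of all tested genes were above 0 and 4392 below. The summed level was 1874, 1898 and 1891 CPM in Double and 1760.5, 1765 and 1857 CPM in WT. These sums did not overlap between the groups, and their difference was not tested. Gene by gene, 3 of the 19 had groups that did not overlap, 2 with Double above WT and 1 with Double below. Over all tested genes 19.5% had groups that did not overlap, and 12.3% had an unadjusted p under 0.05 in edgeR. pyr and ths encode the ligands of htl. pyr read 34.7, 39.8 and 38.8 CPM in Double and 28.2, 37.4 and 32.9 CPM in WT, and ths read 40.0, 41.1 and 42.0 CPM in Double and 31.7, 32.3 and 46.4 CPM in WT. Both pairs of groups overlapped (edgeR adjusted p = 0.5306 and 0.7039). The smallest p values of the list belonged to bnl, the ligand of the tracheal FGF receptor, and aop, an ETS-domain repressor downstream of Ras. bnl averaged 10.8 ± 1.34 CPM in Double and 7.57 ± 0.307 CPM in WT, and aop averaged 298 ± 11.1 CPM in Double and 257 ± 12.2 CPM in WT (SD, n = 3 each), both with an edgeR adjusted p of 0.2232.

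The myoblast fusion list covers recognition proteins, adaptors and regulators of the actin cytoskeleton. Of 20 genes matched, 19 were tested and edgeR, DESeq2 and limma-voom each called none, with 2 at an unadjusted p under 0.05 in edgeR and a median log2 fold change of 0.01. Their summed level spanned 1.02-fold over the 6 libraries. sns, the partner of kirre and rst on fusion-competent myoblasts, read 27.0, 31.5 and 30.4 CPM in Double and 24.8, 31.3 and 37.8 CPM in WT (edgeR adjusted p = 0.8678). lmd, the zinc finger factor of fusion-competent myoblasts, was nearly silent, with reads only in WT replicates 1 and 2, at 0.295 and 0.226 CPM. The members with the smallest p were Rac2, a small GTPase, and Crk, an adaptor of the fusion machinery. Rac2 averaged 99.8 ± 2.98 CPM in Double and 121 ± 8.30 CPM in WT, a log2 fold change of -0.28 (SE 0.07; edgeR adjusted p = 0.1123). Crk averaged 119.6 ± 6.44 CPM in Double and 136 ± 4.69 CPM in WT (edgeR adjusted p = 0.2778). Both are expressed well beyond muscle.

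Of 23 regulators of mesoderm and muscle identity, 16 had enough reads to be tested and none was called by edgeR, DESeq2 or limma-voom, with 4 at an unadjusted p under 0.05 in edgeR. Their log2 fold changes ran from -1.07 to 1.12 with a median of 0.06, and their median size without regard to sign was 0.19. The early mesoderm genes tin, bap and bin, the muscle determination gene nau and the identity genes eve, org-1 and Six4 had too few reads, none above 0.678 CPM in any library. The homeobox gene lbl, a muscle identity gene, read 76.0, 84.4 and 80.4 CPM in Double and 67.0, 66.6 and 68.5 CPM in WT. Its groups did not overlap, as for 19.5% of all tested genes, with a log2 fold change of 0.25 (SE 0.07; edgeR adjusted p = 0.1429). slou, another identity homeobox gene, had 44, 39 and 40 reads in Double and 27, 16 and 15 reads in WT, a log2 fold change of 1.12 (SE 0.34; edgeR adjusted p = 0.2188). vg, which marks the precursors of indirect flight muscles, stood at 2.15 to 6.69 CPM, and the groups overlapped.

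The Notch inputs, which hold myoblasts undifferentiated, gave 0 of 11 tested genes called by edgeR, DESeq2 and limma-voom, with 0 at an unadjusted p under 0.05 in edgeR and a median of 0.04. N, the receptor, read 1276, 1257 and 1274 CPM in Double and 1055, 1193 and 1211 CPM in WT (edgeR adjusted p = 0.4921). Of the 11 genes, N and Ser (edgeR adjusted p = 0.6188) had every Double value above every WT value. Over all tested genes 10.3% had Double entirely above WT. E(spl)m6-BFM, a Notch target of muscle precursors, read 8.34, 6.15 and 6.95 CPM in Double and 7.44, 7.46 and 7.69 CPM in WT, with overlapping groups. E(spl)m3-HLH, a Notch-induced repressor, averaged 62.4 ± 2.97 CPM in Double and 56.0 ± 5.35 CPM in WT (SD, n = 3 each; edgeR adjusted p = 0.526).

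Over the 65 tested genes of these 4 pathway lists, the closest to the mean profile of the 10 myoblast genes over the 6 libraries was Abi, a subunit of the actin-regulating SCAR complex. Its centred log2 level differed from that profile by a root mean square of 0.0360, and Ras85D, numb, Arf6 (Arf51F) and E(spl)mbeta-HLH followed with 0.0684 to 0.0830. The profile itself spanned only 0.266 on the log2 scale, so likeness here means a nearly flat level.

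**Figure D4:**
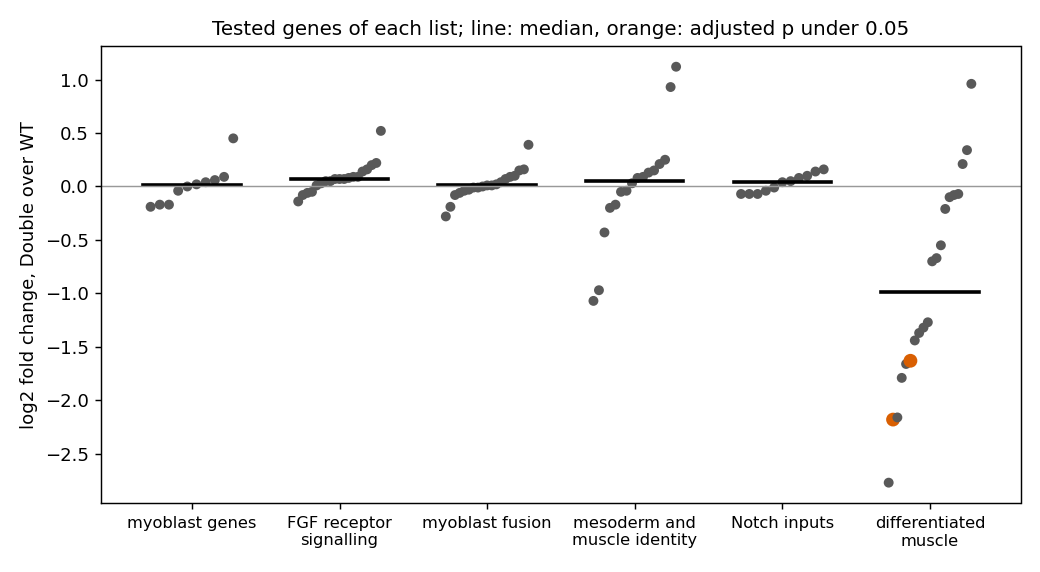
Log2 fold changes of Double over WT for the tested genes of each list (points, sorted within the list), with the median as a line and genes at an adjusted p under 0.05 in orange. The myoblast genes and the 4 pathway lists have medians of 0.01 to 0.07, with single genes of the mesoderm and muscle identity list from -1.07 to 1.12, and differentiated muscle has a median of -0.98 and 2 called genes.

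Differentiated muscle was followed through genes of the contractile apparatus. Of 25 listed, 20 were tested and edgeR called 2, both lower in Double, with 11 at an unadjusted p under 0.05, of which Zasp52 was above 0 (log2 fold change 0.21) and the others below. The median log2 fold change was -0.98, with 17 genes below 0 and 3 above, and in 10 of the 20 every Double value was under every WT value. In 2, the Z-disc genes sls and Zasp52, every Double value was above every WT value. Over all 8802 tested genes 1.49% were called and 12.3% had an unadjusted p below 0.05 in edgeR. Of the same genes 9.11% had Double entirely below WT and 10.3% had Double entirely above it. Mp20, a calponin-like muscle protein gene, had 22, 14 and 10 reads in Double and 64, 78 and 61 reads in WT, a log2 fold change of -2.18 (SE 0.40; edgeR adjusted p = 0.03837). up, the troponin T gene, had 19, 19 and 20 reads in Double and 88, 43 and 57 reads in WT, a log2 fold change of -1.63 (SE 0.30; edgeR adjusted p = 0.04372). The count of 2 was 4 with DESeq2, 0 with limma-voom and with the replicate number as a block, 1 without WT replicate 1 and 0 without any other single library.

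The reads of that list came mainly from genes that cells other than muscle also use. Tm1, sls and Zasp52 read 623, 366 and 209 CPM in Double replicate 1, out of a list sum of 1305 CPM, whereas the muscle myosin gene Mhc read 0.430, 0.904 and 1.79 CPM in Double and 4.35, 0.791 and 2.53 CPM in WT. The flight muscle actin gene Act88F had at most 0.0993 CPM. The log2 fold changes of haemocyte markers were mostly negative too, with 9 of 10 below 0, a median of -0.57, 3 at an unadjusted p under 0.05, none called by edgeR, 1 called by DESeq2 and sums of 222 to 268 CPM in Double and 272 to 398 CPM in WT. The haemocyte sums did not overlap between the groups, but only by 268 CPM in Double replicate 3 against 272 CPM in WT replicate 1. Gene by gene, 2 of the 10 haemocyte markers had groups that did not overlap. Over all tested genes 19.5% had such groups, and 12.3% had an unadjusted p under 0.05 in edgeR. The neuron and glia markers had 6 of 7 below 0, none called by edgeR, DESeq2 or limma-voom, none at an unadjusted p under 0.05, and sums of 87.22 to 132 CPM in Double and 96.5 to 192 CPM in WT. The part of these tissues in the muscle gene values was not tested, nor was the difference between the muscle list and the myoblast genes.

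**Figure D5:**
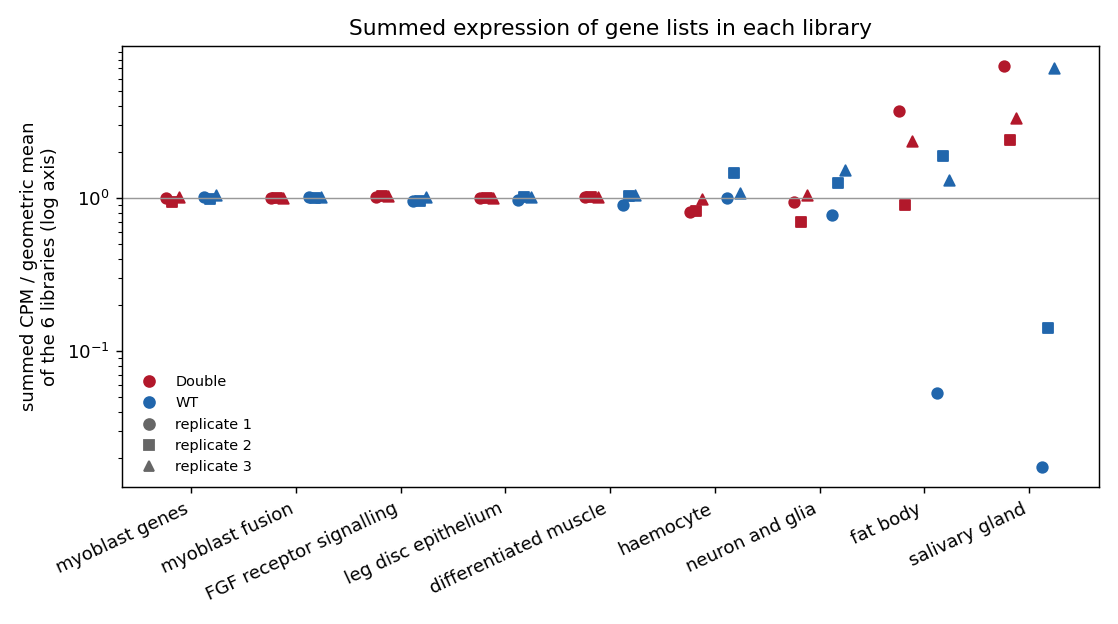
Summed CPM of each gene list in each library, divided by the geometric mean of the 6 libraries, on a log axis, with Double left of WT. The myoblast genes span 1.11-fold and the fusion genes 1.02-fold, while the fat body sum spans 70.3-fold and the salivary gland sum 415-fold.

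Tendon cells, to which leg muscles attach, and tracheal cells also lie near the myoblasts. The 3 tendon markers sr, Tsp and slow had log2 fold changes from -0.14 to -0.00, with none called by edgeR, and their sum spanned 1.39-fold. The 6 tracheal markers had a median of 0.09, all above 0, with none called by edgeR. No tendon or tracheal marker stood at an unadjusted p under 0.05 or was called by DESeq2 or limma-voom.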

How the data were processed

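Whole-number counts per gene were deposited by the authors for 3 Double and 3 WT libraries, strand-specific and poly-A selected, read as paired ends of 150 bases, per the labels' protocols. STAR 2.7.0, HTSeq, DESeq2 and the build dm6 are named in the submitters' processing notes, without roles. The sources used here give no annotation release, filter or strand setting. Symbols, positions and exon lengths came from Ensembl release 115 (BDGP 6.54, dm6 coordinates), which matched 17540 of 17612 identifiers. Of the names in the 12 other lists, 1 (hbs) was not matched and 4 were matched by a synonym or full name.

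Double was tested against WT in edgeR 4.0.16 (R 4.3.3) by its quasi-likelihood F test, after filterByExpr and TMM scaling, with robust dispersions and a model of group alone. Genes were called at a Benjamini-Hochberg adjusted p under 0.05 over all 8802 tested genes. Intervals of 95% used the SE of the log2 fold change (its size over the square root of F) and the moderated degrees of freedom. Across genes the biological coefficient of variation was 20.4%. The test was checked on simulated data. CPM values are TMM-scaled, and intervals and SDs cover these libraries only. Each library was counted as 1 sample. Within a group, pairs of libraries differed beyond counting error, with a chi-square of 8.99 to 36.3 per degree of freedom. That value pools many genes, the variable fat body and salivary gland markers included, and cannot show that the libraries are independent biological samples.

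Alternatives were RLE factors, library totals, no filter, a CPM filter (1 or more in 3 libraries), the tools DESeq2 1.42.0 and limma-voom (limma 3.58.1), the replicate number as a block, a fat body covariate (log2 of the summed markers) and each library left out. The members, lists, tests and alternatives were chosen with earlier results of these data known. The rule for named genes was all 10 members, up to 4 called genes per list, the 2 with the smallest p of each pathway list with none, and the 5 pathway genes nearest the mean myoblast profile (log2 CPM, prior count 2). Any other gene named was picked with its values in view. Protein and promoter sequences were not used here. Tables and figures were made with Python 3.11.15 and matplotlib 3.10.9.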

Additional observations from a re-analysis of the deposited data

How the results depend on the processing

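None of the 10 myoblast genes was called in any of the 14 alternative settings. Their smallest adjusted p was 0.1454, for ct with the fat body covariate. twi, zfh1, ct, Mef2, Him and rst kept their direction in all 14. The sign changed elsewhere only for genes near 0. The log2 fold change of lms was -0.09 with limma-voom and ran from -0.26 to 0.44 when single libraries were left out, at -0.09 without Double replicate 1, -0.26 without Double replicate 3, -0.20 without WT replicate 2 and -0.10 without WT replicate 3. kirre was -0.01 with library totals, without a filter and with limma-voom, -0.10 without Double replicate 1 and -0.09 without WT replicate 2, with 0.09 as its highest value when a library was left out. htl was -0.00 without Double replicate 2 and -0.03 without WT replicate 2, and at most 0.13 with a library left out. stumps was -0.01 with the fat body covariate and -0.00 without WT replicate 1, and at most 0.08 with a library left out. The cause was not tested. The number of genes called higher was 122 and lower 190 with DESeq2, against 48 and 83 with edgeR, and with single libraries left out it ran from 16 to 59 higher and from 30 to 98 lower. With the replicate number as a block it was 67 higher and 99 lower, and the block called none of the 10 myoblast genes. With the block, zfh1 and ct stood at an unadjusted p under 0.05 (edgeR, 0.03844 and 0.03496, or 0.3048 and 0.2951 adjusted). The replicate numbers were not taken as pairs, because no label says that they mark a shared cross, day or batch. Same-numbered libraries had correlations of -0.0706, -0.251 and 0.389 between their deviations from the group means, which cannot settle whether they were paired. lms had 15 to 53 reads and Him 32 to 90 reads per library, and in WT the spread of both between libraries was larger than their counting error.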
